A study of Mus musculus with 10 samples.

Results

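The data described here are 4 RNA-seq libraries of mouse embryonic stem cells (ESCs), 2 of wild-type naive ESCs and 2 of AKO cells, labelled as AMPK knockouts, out of 10 libraries in the series. They were chosen by their labels alone, as J1 WT and J1 AMPK KO. The measure was TPM, the level of a gene's transcripts corrected for length and scaled to the library. The files list 21853 protein-coding genes, and 12060 of these reached 1 TPM in at least 2 of the 10 libraries and were tested. Naive cells were J1 ESCs kept without feeders on gelatin, in high-glucose medium with serum, LIF, the MEK inhibitor PD0325901 and the GSK3 inhibitor CHIR99021, and the labels give one naive medium for all J1 lines. AKO cells were made from J1 with a commercial Cas9 knockout plasmid against Prkaa1 and a repair plasmid, after which RFP-positive cells were sorted and targeted clones were pooled. The guide of that plasmid is not given in the sources used here. A line made from targeted clones can also differ from the wild type in what its clones carried, and in these libraries that cannot be told apart from the knockout. The other 6 libraries were 2 of GKO (labelled as knockouts of Gys1, the muscle-type glycogen synthase), 2 of DKO (labelled as knockouts of both AMPK and Gys1) and 2 of primed PJ1 cells (wild-type, in bFgf and Activin). Nothing says that the 2 libraries of a line came from separate cultures, so the tests measure the spread between these libraries, which may be technical.

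AMPK is a kinase that senses falling cellular energy. A catalytic alpha subunit (Prkaa1 or Prkaa2) is joined by a scaffolding beta subunit (Prkab1 or Prkab2), which carries a glycogen-binding module, and by a gamma subunit (Prkag1, Prkag2 or Prkag3), which binds AMP and ADP. The active kinase phosphorylates enzymes such as acetyl-CoA carboxylase and regulators of mTORC1 and autophagy, so much of its work leaves no direct trace in transcript levels. The question put to AKO against naive ESCs was what the transcriptome of naive cells looks like when Prkaa1, a gene for the alpha subunit, is targeted.

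The 4 libraries were alike in their gross properties. Between 10537 and 10558 genes reached 1 TPM in each, and from 32.1% to 33.1% of the listed TPM came from the top 100 genes. The median absolute difference in log2(TPM + 1) was 0.0555 between the naive libraries and 0.0668 between the AKO libraries, against 0.0779 to 0.0839 between an AKO and a naive library. The depth of the libraries is unknown, because TPM keeps no read count. J1 is a male line, yet the Y-linked genes Ddx3y, Eif2s3y and Uty were listed at 0 in the naive, AKO and primed libraries, whereas DKO and GKO libraries held 2.35 to 41.5 TPM of each. The lines of the comparison described here were thus alike in this respect.

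Prkaa1, the targeted gene, stood at 15.5 and 16.6 TPM in the naive libraries and at 7.24 and 6.94 TPM in the AKO libraries. The AKO libraries lay well below the naive ones but still held 44.2% of the naive mean, as read over the whole gene, and TPM does not show whether these transcripts still encode a kinase. The study also probed AKO cells for AMPK by immunoblot and describes AMPK as absent there, which these libraries do not measure. The change was -1.07 ± 0.07 (SE) in log2(TPM + 1), with a limma adjusted p of 0.0012, the largest change by size among the genes that passed the test. With DKO at 2.30 and 2.04 TPM, the DKO libraries were lower still than the AKO libraries. None of the 75-base windows of the annotated Prkaa1 transcripts occurred in a transcript of another gene, so copies of this gene do not blur the value.

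No other subunit of AMPK passed the test. Prkaa2, the other catalytic subunit, was low, at 2.38 and 2.41 TPM in naive and 2.71 and 2.44 TPM in AKO, and its change of 0.07 ± 0.08 had a 95% interval from -0.11 to 0.25. The alpha pool of naive cells was therefore mostly Prkaa1 transcript on the TPM scale. Prkag1, the most abundant subunit, stood at 46.3 and 49.7 TPM in naive and 46.3 and 44.1 TPM in AKO, with overlapping libraries and an interval from -0.21 to 0.04. Prkab1 changed by -0.08 ± 0.07, Prkab2 by 0.08 ± 0.09 and Prkag2 by 0.13 ± 0.11, and Prkag3 did not reach 0.02 TPM in any of the 4 libraries and was not tested. All 5 tested subunits other than Prkaa1 had 95% intervals inside -0.5 to 0.5. This band is on the log2(TPM + 1) scale, on which a low gene such as Prkaa2 can change more in TPM than the band shows.

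Few genes besides Prkaa1 passed the test. In the limma fit of all 10 libraries, 27 of 12060 genes (0.224%) passed an adjusted p of 0.05, 19 lower (0.158%) and 8 higher (0.0663%) in AKO. Their changes were small, between 0.29 and 1.07 in absolute log2, and only Prkaa1 reached 1. The AKO and naive libraries did not overlap for any of the 27, against 49.3% of all genes tested. At an unadjusted p under 0.05 there were 1231 genes (10.2%), 560 higher and 671 lower. The count rests on the shared estimate of spread, since it fell to 0 in a fit of the 4 libraries alone, where 2011 genes had an unadjusted p under 0.05, and rose to 131 (1.09%) without the primed libraries, the 27 among them. It was 1 to 3 when any of the 4 libraries was left out, and Prkaa1 passed each time.

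**Figure D1:**
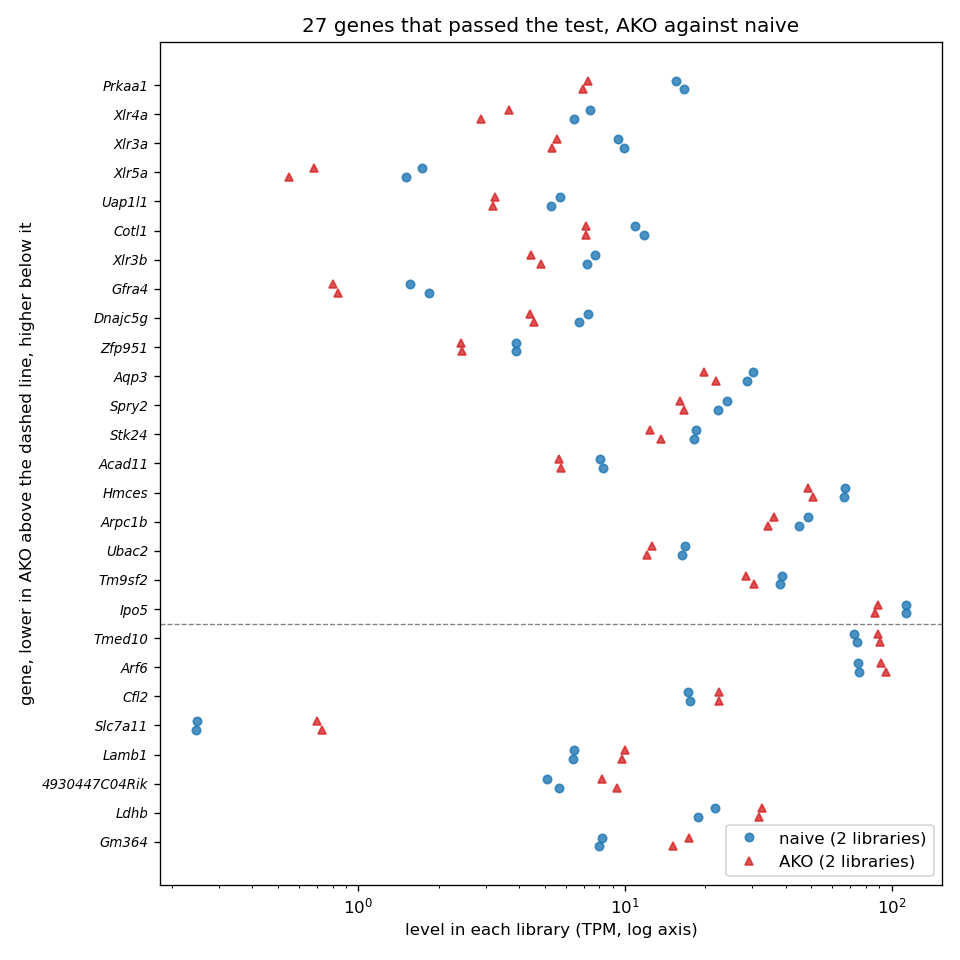
Level of each of the 27 genes that passed the test, in TPM on a log axis, with 1 point per library (blue circles naive, red triangles AKO). The red and blue points of a gene never interleave, and for most genes the shift is well under the spread of levels among genes, as for Ipo5, which went from 114 and 113 TPM to 89.0 and 86.4 TPM.

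The genes that fell besides Prkaa1 have varied roles. Cotl1, an actin-binding protein, stood at 10.9 and 11.8 TPM in naive and 7.17 and 7.12 TPM in AKO (-0.60 ± 0.05, adjusted p = 0.0072). Arpc1b, a subunit of the Arp2/3 actin-nucleating complex, stood at 48.8 and 45.0 TPM against 36.2 and 34.4 TPM, a change of -0.40 ± 0.05. Both genes were lower in both AKO libraries, with no overlap. Spry2, a feedback inhibitor of receptor tyrosine kinase signalling, went from 24.2 and 22.3 TPM to 16.1 and 16.6 TPM (-0.48 ± 0.07). Stk24, a kinase of the germinal-centre kinase family, went from 18.5 and 18.2 TPM to 12.4 and 13.6 TPM (-0.46 ± 0.06). Gfra4, a co-receptor for a ligand of the GDNF family, was low throughout, at 1.57 and 1.83 TPM against 0.801 and 0.838 TPM (-0.57 ± 0.08).

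Aqp3, a channel for water and glycerol, went from 30.2 and 28.7 TPM to 19.7 and 21.9 TPM (-0.48 ± 0.07). Acad11, an acyl-CoA dehydrogenase of fatty acid breakdown, went from 8.06 and 8.28 TPM to 5.66 and 5.74 TPM (-0.45 ± 0.06). Uap1l1, a relative of the enzyme that makes UDP-N-acetylglucosamine, went from 5.68 and 5.26 TPM to 3.24 and 3.20 TPM (-0.62 ± 0.07). In each of these genes the naive libraries lay closer to each other than to either AKO library. Hmces, which shields abasic sites in DNA, stood at 66.6 and 66.3 TPM in naive and 48.6 and 50.7 TPM in AKO (-0.41 ± 0.05). The zinc finger gene Zfp951 stood at 3.90 and 3.91 TPM against 2.43 and 2.45 TPM (-0.51 ± 0.07), and Dnajc5g, a J-domain protein known from testis, at 7.29 and 6.72 TPM against 4.38 and 4.55 TPM (-0.55 ± 0.07).

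Of the 8 genes that rose, Gm364 moved most. This gene, without an established function and with no position in the annotation used here, stood at 8.19 and 7.97 TPM in naive and 17.4 and 15.1 TPM in AKO, 201% of the naive mean (0.92 ± 0.09, adjusted p = 0.014). Ldhb, the heart-type subunit of lactate dehydrogenase, stood at 21.8 and 18.8 TPM in naive and 32.5 and 31.8 TPM in AKO, a change of 0.64 ± 0.09 with an adjusted p of 0.039. Its partner Ldha, the muscle-type subunit and by far the more abundant, was at 1018 and 1022 TPM in naive and 1198 and 1097 TPM in AKO, and its change of 0.17 ± 0.06 did not pass (adjusted p = 0.40). The remaining rises were in Slc7a11, which imports cystine, and in 5 genes of chromosome 12.

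The positions of the 27 genes were not spread evenly. A position in GRCm39 was found for 11763 tested genes (97.5%), by symbol or RefSeq synonym in the GENCODE annotation. On chromosome 12 lay 413 of them, and 5 of the 8 genes that rose. Lamb1, a laminin chain of the basement membrane (chr12:31315030-31379658), rose from 6.44 and 6.36 TPM to 9.97 and 9.78 TPM. Cfl2, an actin-severing cofilin (chr12:54905587-54909886), rose from 17.3 and 17.5 TPM to 22.5 and 22.5 TPM. Arf6, a small GTPase of membrane traffic and actin (chr12:69418826-69420557), rose from 74.7 and 75.5 TPM to 91.3 and 95.1 TPM. These rises of 0.56 ± 0.06, 0.35 ± 0.05 and 0.31 ± 0.04 in log2(TPM + 1) were modest next to the tight libraries. The other members of this group were 4930447C04Rik, a gene of the meiotic synaptonemal complex (0.61 ± 0.08), and Tmed10, a cargo receptor of the early secretory pathway (0.29 ± 0.04).

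The shift held for chromosome 12 as a whole. The median change of its 413 tested genes was 0.155, against -0.0098 for the genes of all other chromosomes, and 92.0% of them were above 0, against 47.5% of all genes tested. Both AKO libraries showed it alike, with medians of 0.156 and 0.156 over the naive mean, and the naive libraries differed from each other by a median of 0.0186 there. It ran along the chromosome, since the medians of its 12 windows of 10 Mb lay between 0.0933 and 0.209. The median of every other autosome and of the X chromosome lay between -0.029 and 0.026. A difference in DNA copy number and a difference in transcription cannot be told apart in these libraries, and neither was tested.

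**Figure D2:**
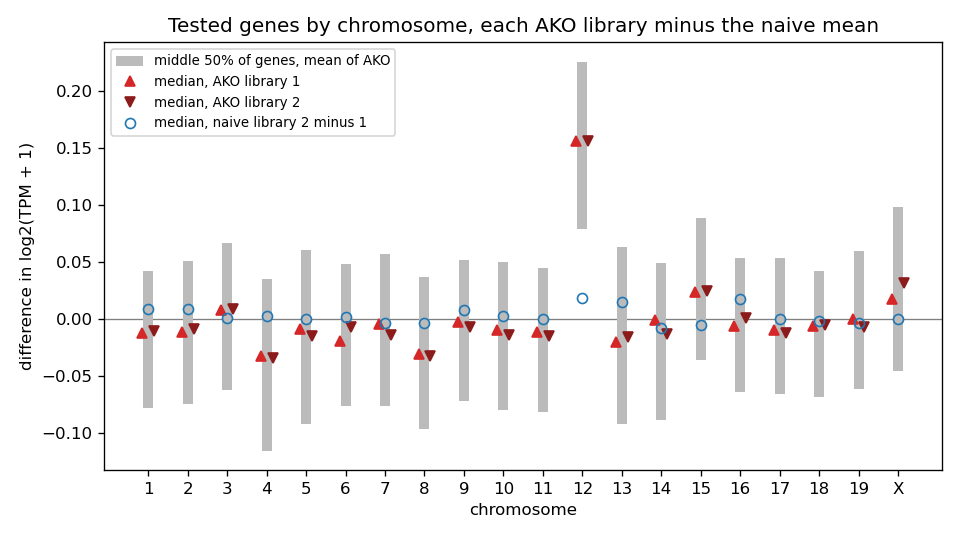
Median difference in log2(TPM + 1) of the tested genes of each chromosome, for each AKO library minus the mean of the naive libraries (red triangles) and between the naive libraries (open blue circles); grey bars hold the middle 50% of genes. Chromosome 12 stands at 0.156 in both AKO libraries, and all others lie near 0.

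A second stretch, at the far end of chromosome 14, was lower in AKO. Of the 17 tested genes that start beyond 120 Mb, 15 were below 0, their median change was -0.32, and 4 of the 19 genes that fell lie there. Ipo5, an importin that carries proteins into the nucleus (chr14:121147750-121189195), stood at 114 and 113 TPM in naive and 89.0 and 86.4 TPM in AKO. Stk24, described above, starts at chr14:121521599-121617423. Ubac2, a protein of the endoplasmic reticulum (chr14:122115938-122263446), went from 16.9 and 16.3 TPM to 12.6 and 12.1 TPM. Tm9sf2, a membrane protein of endosomes and Golgi (chr14:122344412-122397016), went from 38.9 and 38.2 TPM to 28.5 and 30.4 TPM. The medians were -0.34 and -0.33 in the AKO libraries taken one by one, and the naive libraries differed by -0.012. Zic5 and Zic2, transcription factors of the primed state, lie in the same stretch and had values of -0.46 ± 0.12 and -0.32 ± 0.11 that did not pass (adjusted p = 0.22 and 0.34).

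Among the 235 other windows of 10 Mb with at least 10 tested genes, those outside chromosome 12 and the last 20 Mb of chromosome 14, medians lay between -0.12 and 0.066. Without the genes of these regions, 18 of the 27 remained, 3 higher and 15 lower. When the median change of its own chromosome was subtracted from each gene with a position in the AKO libraries, 17 of the 27 passed, with 2 higher and 15 lower. Lamb1 and the other genes of chromosome 12 were not among them. With windows of 10 Mb in place of chromosomes, 10 passed, namely Prkaa1, Cotl1, Gm364, Hmces, Uap1l1, Dnajc5g, Zfp951, Xlr3a, Xlr4a and Xlr5a. Nothing was subtracted from Gm364, which had no position, so it counts among those that passed by construction. Both forms of centring were chosen after seeing the data.

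**Figure D3:**
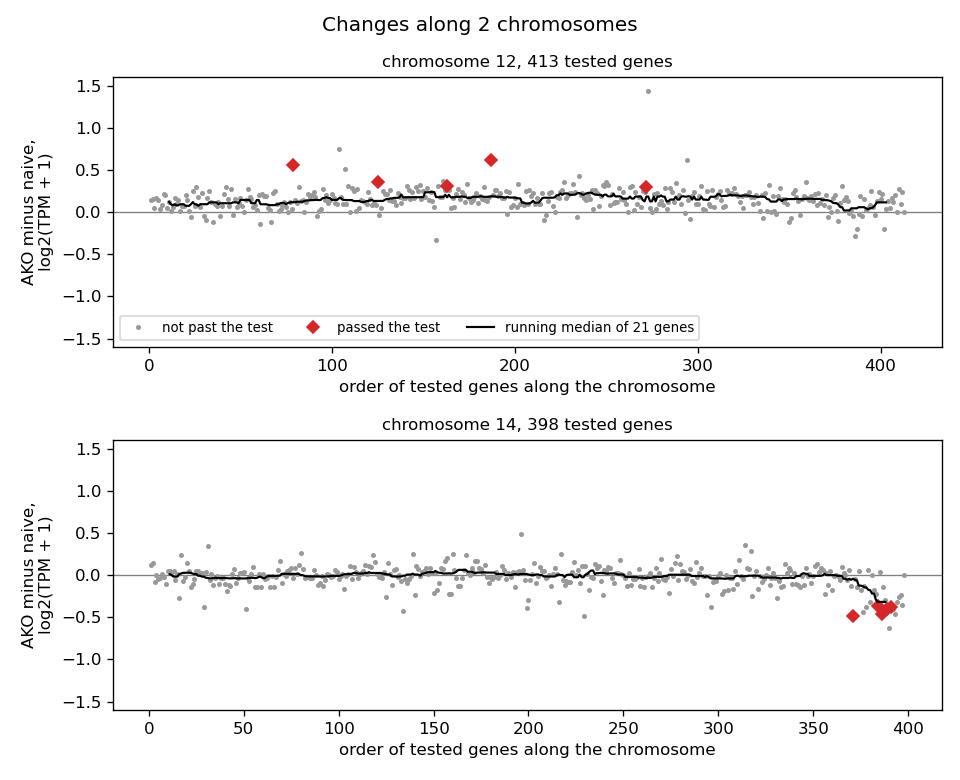
Change in log2(TPM + 1) of every tested gene of chromosomes 12 and 14, in their order along the chromosome, with the running median of 21 genes (black) and the genes that passed the test (red). The line runs above 0 on chromosome 12, whereas on chromosome 14 it leaves 0 only at the far end, where the last 17 genes have a median of -0.32.

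The Xlr genes, X-linked genes of the lymphocyte-regulated family with relatives in the synaptonemal complex, were lower in AKO. Of 7 tested members 4 passed, all lower, and the median of the 7 was -0.58, against -0.0064 over all genes tested. Xlr3a, the highest of them, stood at 9.38 and 9.89 TPM in naive and 5.57 and 5.33 TPM in AKO. Xlr4a stood at 7.40 and 6.42 TPM against 3.65 and 2.88 TPM, and Xlr5a at 1.73 and 1.5 TPM against 0.680 and 0.550 TPM. Xlr3b went from 7.68 and 7.22 TPM to 4.45 and 4.84 TPM, the smallest change of the 4, at -0.58 ± 0.09. Xlr4b, with -0.54 ± 0.09 and an adjusted p of 0.062, lay just outside the threshold. These genes sit together on the X chromosome, Xlr4a at chrX:72117936-72126140 and Xlr3b at chrX:72235091-72246951, and they are near copies. Of the 75-base windows of their annotated transcripts, 30.3% (Xlr3a) to 54.2% (Xlr4a) also occur in another gene, so RSEM had to divide reads among them and their values are not independent of each other. Among the other 22 genes with a position this share was at most 5.55%, in Tmed10.

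Slc7a11 (xCT) takes up cystine in exchange for glutamate and is a target of ATF4, the transcription factor of the amino acid and integrated stress responses. Its level was low, at 0.249 and 0.245 TPM in naive and 0.700 and 0.729 TPM in AKO, and the AKO libraries lay clearly above the naive ones. The change of 0.46 ± 0.07 on the log2(TPM + 1) scale (adjusted p = 0.042) understates the ratio, since the AKO mean was 289% of the naive mean, and all 4 values lay under 1 TPM, so the gene passed the filter only through the primed libraries with 23.8 TPM each. With a pseudocount of 0.1 TPM the change was 1.23 and still passed.

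Composite elements bound by ATF4 and its C/EBP partners are written as TGATGNAA, or TTNCATCA on the other strand. The 200 bases before the RefSeq start (GRCm38.p6) of 3 ATF4 targets are shown because they cover the called gene of the list, its member with the largest value and its most abundant member, with that motif in capitals: Slc7a11 (chr3:50443614-50443813, minus strand), Chac1 (chr2:119351042-119351241, plus strand) and Asns (chr6:7693210-7693409, minus strand).
Slc7a11: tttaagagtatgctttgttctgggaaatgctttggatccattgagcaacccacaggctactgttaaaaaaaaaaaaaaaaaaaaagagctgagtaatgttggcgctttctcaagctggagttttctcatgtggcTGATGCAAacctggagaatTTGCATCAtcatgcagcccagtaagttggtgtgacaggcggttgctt
Chac1: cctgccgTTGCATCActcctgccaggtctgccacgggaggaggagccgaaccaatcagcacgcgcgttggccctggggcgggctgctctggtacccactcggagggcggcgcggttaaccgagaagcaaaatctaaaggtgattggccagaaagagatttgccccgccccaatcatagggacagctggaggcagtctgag
Asns: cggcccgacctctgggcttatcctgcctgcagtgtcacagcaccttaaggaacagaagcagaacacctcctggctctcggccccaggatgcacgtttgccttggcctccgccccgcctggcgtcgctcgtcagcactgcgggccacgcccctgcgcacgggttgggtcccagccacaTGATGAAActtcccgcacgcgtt
The Slc7a11 stretch holds the motif on both strands, starting 66 and 47 bases before the start, and the other stretches hold it on 1 strand, 193 bases (Chac1) and 23 bases (Asns) before it. Over windows from 250 bases before to 50 bases after a start, 3.97% of 32851 RefSeq promoters hold the motif, and 0.07% hold it more than 1 time. Of the 19 tested ATF4 targets with a promoter in that table, 8 hold it in any of their promoters. That count is by gene, whereas the 3.97% is by promoter, so the shares are in unlike units. A match is a string of letters and says nothing about binding in these cells.

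The ATF4 targets lay mostly above 0, and 1 passed the test. Of 22 tested members, Slc7a11 passed, 0 fell, 6 had an unadjusted p under 0.05, and 13 were bounded within 0.5. Over all genes tested, 10.2% had an unadjusted p under 0.05 and 90.8% were bounded. The median was 0.12 and 90.9% of the members lay above 0, against -0.0064 and 47.5% over all genes tested. Chac1, which degrades glutathione, stood at 8.39 and 8.84 TPM in naive and 13.2 and 11.6 TPM in AKO (0.48 ± 0.11, adjusted p = 0.17). Atf4 itself stood at 249 and 242 TPM against 282 and 276 TPM, with a value of 0.18 ± 0.05 and an adjusted p of 0.22. Asns, asparagine synthetase, stood at 514 and 503 TPM against 523 and 522 TPM, within an interval from -0.25 to 0.33. In the fit without the primed libraries the count was the same, with Slc7a11 the 1 member past the test.

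Targets of ERK signalling held the largest single value of all the lists, in a medium with a MEK inhibitor. Of 14 tested members, Spry2 passed and was lower, 0 passed as higher, 4 had an unadjusted p under 0.05, and 6 were bounded within 0.5. The shares over all genes tested were 10.2% at an unadjusted p under 0.05 and 90.8% bounded. Egr1, an immediate early transcription factor, stood at 39.2 and 22.1 TPM in naive and 88.1 and 81.7 TPM in AKO. Fos, another immediate early gene, stood at 2.80 and 1.58 TPM against 7.51 and 7.48 TPM. The AKO libraries were above both naive libraries in each, and the naive libraries lay apart, and neither 1.49 ± 0.36 for Egr1 nor 1.44 ± 0.39 for Fos passed (adjusted p = 0.17 and 0.23). Fos lies on chromosome 12, where the median change was 0.155, and what part that shift has in its value was not tested. Without the primed libraries Fos passed (adjusted p = 0.012), as did Spry4, an inhibitor of the pathway at 59.0 and 60.9 TPM against 40.6 and 42.3 TPM (adjusted p = 0.012), and Egr1 did not (adjusted p = 0.070). Fos and Spry4 are named here after their values were seen. Etv5, the most abundant member, overlapped between the lines, at 129 and 121 TPM against 122 and 126 TPM.

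For most other genes the interval of the change was narrow. The median 95% interval reached 0.185 to either side of the estimate, and 10947 genes (90.8%) had an interval wholly within 0.5, and 11981 within 1. Of the 6293 genes at 10 TPM or more in naive cells, 6077 (96.6%) were bounded within 0.5. Without the primed libraries 11425 genes (94.7%) were bounded. Of the 79 genes not bounded within 1, 50 were under 5 TPM in naive cells. The count includes genes that were hardly expressed here, since 1309 tested genes were under 1 TPM in all 4 libraries and 1122 of these were bounded, which with a pseudocount of 1 says little about them. Of the 10439 genes at 1 TPM or more in both naive libraries, 9621 (92.2%) were bounded, and with a pseudocount of 0.1 the count over all tested genes was 8823. The shares over all genes were 90.8% bounded, 10.2% at an unadjusted p under 0.05 and 0.224% past the test. They are the background for the lists above and below, and a list near them shows nothing particular to it. Zic2 and Xlr4b above, and Dlst, Ccng1, Trp53inp1, Dnmt3b, Psma6 and Psmc1, given with their lists, were named after their values were seen. Bounds cover the spread between these libraries and not that between further clones.

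Regulators and substrates of AMPK gave no call. All 16 tested upstream regulators, kinases and phosphatases that act on AMPK, were bounded, with 0 past the limma test and 4 at an unadjusted p under 0.05. Fnip1, a folliculin partner that both acts on AMPK and is its substrate, had the largest value, with 13.6 and 14.2 TPM in naive and 11.2 and 11.8 TPM in AKO (-0.25 ± 0.06, adjusted p = 0.19). Ppp2r1a, the scaffold of phosphatase 2A and the most abundant of them, stood at 163 and 164 TPM against 155 and 161 TPM. Of 37 tested substrates, 36 were bounded and 0 passed, with 4 at an unadjusted p under 0.05 and a median of -0.014. Acaca, the acetyl-CoA carboxylase that AMPK inhibits, stood at 21.8 and 24.2 TPM in naive and 22.7 and 20.2 TPM in AKO, with overlapping libraries and an interval from -0.29 to 0.09. Gys1, the glycogen synthase that AMPK also phosphorylates, stood at 11.5 and 10.8 TPM against 12.7 and 12.2 TPM, with an interval from 0.01 to 0.28 and an adjusted p of 0.44. Trp53, the most abundant substrate, overlapped between the lines, at 242 and 235 TPM against 238 and 238 TPM.

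Kinases related to AMPK, which LKB1 also activates, gave 0 of 13 past the test, 2 at an unadjusted p under 0.05 and 11 bounded. Mark2, the most abundant, stood at 38.7 and 37.2 TPM in naive and 38.6 and 40.6 TPM in AKO. Brsk2, a kinase of neurons, had the largest value, -0.38 ± 0.11 at under 1 TPM, and passed only without the primed libraries (adjusted p = 0.0499).

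Lipid genes include the enzymes downstream of the acetyl-CoA carboxylase step, and no member of the lipid lists passed the test. Acad11, which passed as lower and is described above, was not a member of these lists. In fatty acid synthesis 0 of 16 passed, 0 had an unadjusted p under 0.05, 15 were bounded and the median was -0.0018. Scd2, a stearoyl-CoA desaturase and the most abundant, stood at 358 and 352 TPM in naive and 378 and 376 TPM in AKO, with an interval from -0.04 to 0.21. Elovl1, an elongase of very long chains, had the largest value in that list, at -0.14 ± 0.08. In fatty acid oxidation 0 of 22 passed, 2 had an unadjusted p under 0.05 and 21 were bounded, with Decr1, a reductase for unsaturated chains, at 0.19 ± 0.09 and Etfb, which takes up the electrons, at -0.06 ± 0.07. In cholesterol synthesis 0 of 24 passed, 4 had an unadjusted p under 0.05 and all 24 were bounded. Tm7sf2, a sterol reductase, had the largest value there, with 19.5 and 22.5 TPM in naive and 25.5 and 25.5 TPM in AKO (0.27 ± 0.09, adjusted p = 0.33), and Fdps, the most abundant, stood at 129 and 125 TPM against 125 and 114 TPM.

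Glycogen genes likewise gave no call. Of 18 tested, 0 passed, 16 were bounded and 6 had an unadjusted p under 0.05, which as a share is above that of all genes, with a median of -0.030. Pgm1, a phosphoglucomutase, had the largest value, from 2.20 and 2.23 TPM to 3.30 and 2.65 TPM (0.30 ± 0.12, adjusted p = 0.43). Gaa, the lysosomal glucosidase of glycogen, was the most abundant, at 20.2 and 18.8 TPM against 19.6 and 20.0 TPM. Values above and below 0 mixed within this list, with 44.4% above 0. The liver-type synthase Gys2 was listed at 0 in all 4 libraries.

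In glycolysis and lactate metabolism 1 of 32 passed, Ldhb, described above, and 25 were bounded. Gapdh stood at 4208 and 4072 TPM in naive and 4280 and 4386 TPM in AKO, with an interval from -0.10 to 0.23. Within the list of 5 lactate dehydrogenases 3 were bounded, and the sum of the 5 was 1043 and 1044 TPM in naive and 1233 and 1133 TPM in AKO. In the TCA cycle 0 of 22 passed, 4 had an unadjusted p under 0.05 and 21 were bounded. Pcx, pyruvate carboxylase, was the exception to the bound, at 30.5 and 32.7 TPM in naive and 24.5 and 23.0 TPM in AKO (-0.40 ± 0.09, adjusted p = 0.16), and it passed without the primed libraries (adjusted p = 0.019). Dlst, a subunit of the oxoglutarate dehydrogenase complex on chromosome 12, passed there too (0.24 ± 0.04, adjusted p = 0.033, or 0.10 with all libraries). Mdh2, malate dehydrogenase of the mitochondrion, stood at 391 and 381 TPM against 363 and 374 TPM.

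Mitochondrial, autophagy and mTORC1 genes, all within reach of AMPK by phosphorylation, gave 0 calls among 21, 33 and 30 tested members. At an unadjusted p under 0.05 there were 2, 2 and 7, and 21, 32 and 27 were bounded. Fis1, a fission factor of mitochondria, stood at 103 and 102 TPM in naive and 91.3 and 93.1 TPM in AKO (-0.15 ± 0.06), and Mief2, another, had the largest value, -0.18 ± 0.08. Lamp1, the lysosomal membrane protein, stood at 294 and 298 TPM against 284 and 296 TPM, and Tfeb, the master regulator of lysosomal genes, at 28.9 and 26.5 TPM against 24.1 and 22.1 TPM (-0.25 ± 0.11, adjusted p = 0.49). Eif4ebp1, the translation inhibitor that mTORC1 phosphorylates, stood at 233 and 228 TPM against 237 and 227 TPM. Ddit4, a stress-induced inhibitor of mTORC1, varied most, with 8.54 and 6.78 TPM against 11.5 and 8.17 TPM and overlapping libraries. In FoxO and MondoA targets 0 of 16 passed, 0 had an unadjusted p under 0.05 and 15 were bounded, with Sod2, the mitochondrial superoxide dismutase, at 70.9 and 69.2 TPM against 71.8 and 69.1 TPM and Ccng2, a cyclin, at 0.18 ± 0.09. In p53 targets 0 of 17 passed, 1 had an unadjusted p under 0.05 and 11 were bounded, with Plk2, a polo-like kinase, at 0.25 ± 0.28. Without the primed libraries 2 of the 17 passed as higher, Ccng1, a cyclin, at 67.1 and 67.3 TPM against 77.4 and 81.5 TPM (adjusted p = 0.030) and Trp53inp1, a stress-induced p53 partner, at 29.5 and 30.5 TPM against 34.7 and 35.6 TPM (adjusted p = 0.041).

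**Figure D4:**
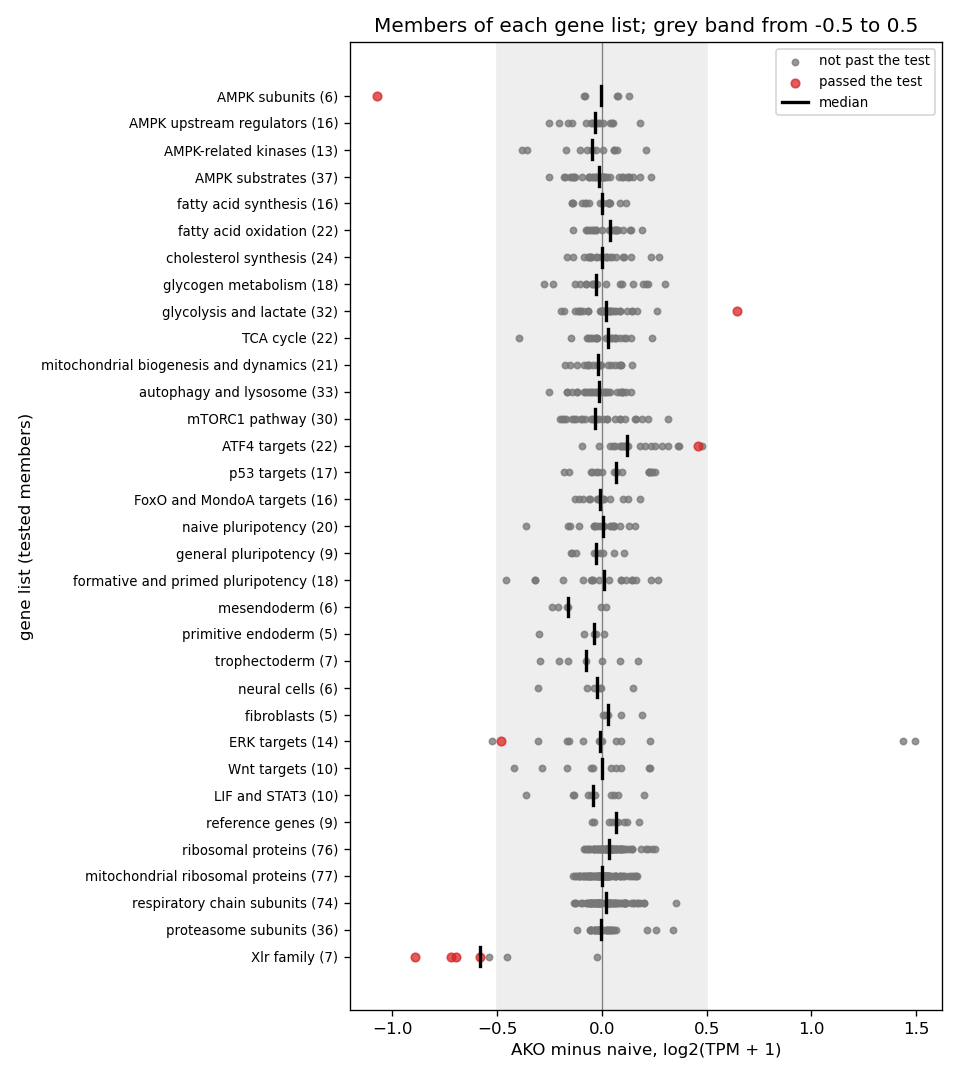
Change in log2(TPM + 1) of each tested member of the gene lists, 1 point per gene, with the median of each list (black bar) and members that passed the test in red. Apart from the Xlr family and Prkaa1, Ldhb, Egr1, Fos and Spry4, members lie in the grey band from -0.5 to 0.5, and the ATF4 targets have a median of 0.12.

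Naive pluripotency, the labelled state, was present in both lines, and none of its markers passed the test. Of 20 tested markers 0 passed, 2 had an unadjusted p under 0.05 and 19 were bounded, with a median of 0.0047. Nanog stood at 441 and 429 TPM in naive and 458 and 443 TPM in AKO, and Zfp42 at 474 and 458 TPM against 467 and 469 TPM. Klf2 stood at 245 and 268 TPM against 266 and 260 TPM, and Klf4 at 121 and 113 TPM against 116 and 112 TPM. The libraries of the lines overlapped for each of these except Nanog, whose interval ran from -0.09 to 0.19. Esrrb, which lies on chromosome 12, stood at 186 and 174 TPM against 196 and 197 TPM (0.13 ± 0.04, adjusted p = 0.35). Nr0b1 stood at 38.9 and 32.4 TPM against 30.1 and 33.4 TPM, and Dppa5a, the most abundant marker, at 1222 and 1134 TPM against 1318 and 1305 TPM (0.16 ± 0.07). Gbx2, a homeobox factor downstream of LIF, had the largest value in this list and in the LIF list, from 15 and 14 TPM to 10.8 and 11.3 TPM (-0.36 ± 0.18), and passed without the primed libraries (adjusted p = 0.030).

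General pluripotency genes gave 0 of 9 past the test, 0 at an unadjusted p under 0.05 and 6 bounded, which became 9 without the primed libraries. Pou5f1 stood at 833 and 819 TPM in naive and 802 and 817 TPM in AKO, with an interval from -0.22 to 0.17. Utf1 had the largest value, -0.15 ± 0.22. In the LIF and STAT3 list 0 of 10 passed, 2 had an unadjusted p under 0.05 and 9 were bounded, and in the Wnt list 0 of 10 passed, 2 had an unadjusted p under 0.05 and 7 were bounded. Cdx1, a homeobox gene that Wnt signalling induces, stood at 29.6 and 29.0 TPM against 22.0 and 21.3 TPM (-0.42 ± 0.09, adjusted p = 0.15) and passed without the primed libraries (adjusted p = 0.012). Ccnd1, a cyclin and the most abundant Wnt target, stood at 64.1 and 63.9 TPM against 73.9 and 76.3 TPM (0.23 ± 0.10, adjusted p = 0.51) and also passed there (adjusted p = 0.035).

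Genes of the formative and primed states lay on both sides of 0. Of 18 tested, 0 passed, 4 had an unadjusted p under 0.05, 11 were bounded and the median was 0.010. Otx2, a factor that turns on as cells leave the naive state, stood at 5.72 and 6.10 TPM in naive and 6.44 and 6.51 TPM in AKO, with an interval from -0.10 to 0.33, against 53 and 55.9 TPM in primed cells. Lefty2, a Nodal inhibitor, was the most abundant at 238 and 225 TPM against 292 and 264 TPM. Its interval from -0.98 to 1.52 was wide, and 17 of the 18 genes were bounded without the primed libraries, which differ between themselves. Fgf5, the classical primed marker, did not pass the filter and was at most 0.10 TPM in the 4 libraries. Zic5, with the largest value, is given above with its stretch of chromosome 14, and it passed without the primed libraries (adjusted p = 0.043). So did Dnmt3b, a DNA methyltransferase, at 27.5 and 28.3 TPM against 22.7 and 21.5 TPM (adjusted p = 0.019, or 0.11 with all libraries).

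No tested gene of the lineage lists passed the test. In the mesendoderm list 0 of 6 tested genes passed, 0 had an unadjusted p under 0.05 and 0 were bounded, or 5 without the primed libraries. Eomes stood at 19.8 and 20.3 TPM in naive and 17.4 and 18.3 TPM in AKO (-0.16 ± 0.41), T at 15.7 and 14.5 TPM against 13.4 and 13.2 TPM (-0.17 ± 0.60), and Fgf8 had the largest value at under 1 TPM (-0.24 ± 0.77). Cer1 was listed at 0 in all 4 libraries, and Sox17 was at most 0.18 TPM, so neither was tested. The errors of Eomes and T came from the shared spread rather than from the 4 libraries, which lay close together. In the primitive endoderm list 0 of 5 passed, 1 had an unadjusted p under 0.05 and all 5 were bounded, with Lama1, a laminin, at 9.05 and 8.98 TPM against 8.69 and 8.81 TPM and Col4a1, a collagen, at -0.30 ± 0.09 (adjusted p = 0.25). In the trophectoderm list 0 of 7 passed, 1 had an unadjusted p under 0.05 and 4 were bounded, with Cdx2 at 2.57 and 2.66 TPM against 1.93 and 1.97 TPM (-0.29 ± 0.15).

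Among markers of other cell types, none passed the test. The 2-cell-like list had no gene past the filter, and its summed level was 1.44 to 1.75 TPM in the 4 libraries. The fibroblast list summed to 3.24 to 4.00 TPM, with Thy1 at 3.00 and 2.44 TPM against 2.63 and 2.81 TPM and its other tested members under 0.5 TPM, and 0 of 5 passed (0 at an unadjusted p under 0.05, 4 bounded). Tagln, a smooth-muscle gene, had the largest value there, 0.19 ± 0.13. In the neural list 0 of 6 passed, 1 had an unadjusted p under 0.05 and 5 were bounded. The list summed to 63.3 and 65.1 TPM in naive and 52.2 and 54.1 TPM in AKO, most of it from the member with that p. It was Tubb3, a tubulin also used outside neurons, at 59.0 and 60.6 TPM in naive and 47.2 and 49.3 TPM in AKO (-0.30 ± 0.05, adjusted p = 0.088), and it passed without the primed libraries (adjusted p = 0.019). In bulk RNA, a smaller share of cells that express a gene and less RNA of it per cell cannot be told apart.

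Genes of the protein-making and energy machinery were mostly bounded, as were 96.6% of all tested genes at 10 TPM or more in naive cells. Of 76 ribosomal protein genes 0 passed, 4 had an unadjusted p under 0.05 and 74 were bounded, with a median of 0.035. Rplp1, the most abundant, stood at 4758 and 4377 TPM in naive and 4498 and 4381 TPM in AKO, and Rps7, which lies on chromosome 12, had the largest value (0.25 ± 0.05, adjusted p = 0.14). All 77 mitochondrial ribosomal protein genes were bounded, 0 passed and 2 had an unadjusted p under 0.05, with Mrpl33 at 0.17 ± 0.08 and Mrpl34 at -0.0045 ± 0.09. Of 74 subunits of the respiratory chain 0 passed, 5 had an unadjusted p under 0.05 and 72 were bounded, with Cox7c at 871 and 633 TPM against 945 and 950 TPM (0.35 ± 0.13) and Atp5b at 1258 and 1229 TPM against 1252 and 1265 TPM. Of 36 proteasome subunits 0 passed, 3 had an unadjusted p under 0.05 and 35 were bounded. Those 3, Psma3, Psma6 and Psmc1, all lie on chromosome 12, and Psma3 had the largest value at 0.34 ± 0.08 (adjusted p = 0.19), and Psma6 passed without the primed libraries (adjusted p = 0.045). Psmb3, the most abundant, stood at 475 and 463 TPM against 469 and 485 TPM.

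The 10 most abundant tested genes, Eef1a1, Ftl1, Rplp1, Rpl41, Gapdh, Rps27, Rpl38, Rps2, Rpl32 and Rpl23a, had values between -0.083 and 0.087 and intervals inside -0.5 to 0.5. Eef1a1, the elongation factor that brings tRNA to the ribosome, led them with 5837 and 5656 TPM in naive and 5823 and 5585 TPM in AKO.

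The AMPK knockout can be read a second time, on the Gys1 knockout, as DKO against GKO. Gys1 transcript itself was at 9.70 and 9.98 TPM in GKO and at 12.1 and 11.7 TPM in DKO, close to the naive level, so the transcript level does not check that label. That comparison shares no library with AKO against naive, but its lines differ from naive and AKO in the Y-linked genes given above. Chromosome-wide medians against naive differed too, at 0.47 (GKO) and 0.37 (DKO) over chromosome 14. They were -0.40 and -0.27 over chromosome 19, and -0.073 and -0.26 over the X chromosome. Over chromosome 6, where Ldhb lies, they were 0.14 and -0.013. In DKO against GKO 5252 of 12060 genes (43.5%) passed, and 3116 (25.8%) passed a test of the difference between the changes in the 2 backgrounds. Of the 27 genes, 21 passed in DKO against GKO, 12 in the same direction and 9 in the opposite one. Whether or not they passed there, 15 of the 27 had the same sign in both comparisons. The difference of the changes passed for 18 of the 27, a count that is not independent of how the genes were chosen, since the AKO change is part of it.

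**Figure D5:**
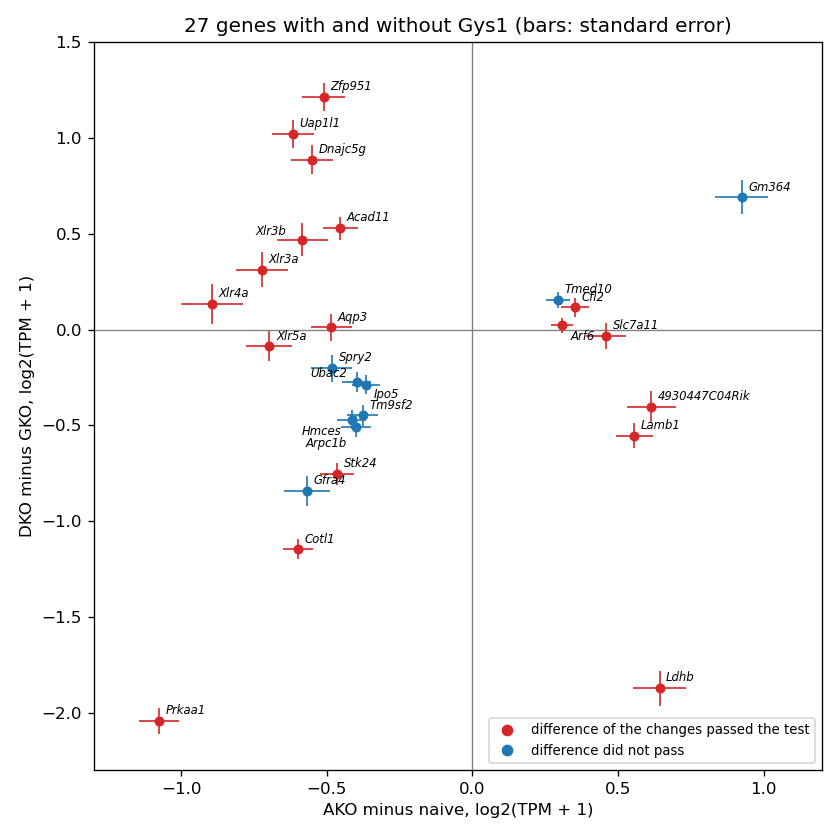
Change of the 27 genes with the AMPK knockout in wild-type cells (x, AKO minus naive) and in Gys1 knockout cells (y, DKO minus GKO), both in log2(TPM + 1) with standard errors. Prkaa1 and Cotl1 lie low in both, whereas Ldhb, Lamb1 and 4930447C04Rik lie right of 0 on x and below 0 on y.

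Prkaa1 fell in both backgrounds, from 12.2 and 12 TPM in GKO to 2.30 and 2.04 TPM in DKO, a change of -2.04 ± 0.07 that exceeded the one in AKO. Cotl1 fell in both as well, with 34.7 and 34.8 TPM in GKO and 15.2 and 15.1 TPM in DKO (-1.15 ± 0.05). Hmces (-0.47), Arpc1b (-0.51), Gfra4 (-0.84), Tm9sf2 (-0.45), Ipo5 (-0.29), Ubac2 (-0.27), Stk24 (-0.75) and Spry2 (-0.20) fell, and Gm364 (0.69) and Tmed10 (0.16) rose, in DKO minus GKO too. These 12 genes, Prkaa1 and Cotl1 among them, are those that passed with the same sign. The end of chromosome 14, where 4 of them lie, had a median of -0.095 in DKO minus GKO. Over the whole of chromosome 14 that median was -0.10, so the end did not stand out there.

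Ldhb went the opposite way, from 111 and 126 TPM in GKO to 33.9 and 29.4 TPM in DKO (-1.87 ± 0.09), with a difference of -2.51 from its change in AKO. Lamb1 (-0.55) and 4930447C04Rik (-0.40) fell there too, and Uap1l1 (1.02), Zfp951 (1.22), Dnajc5g (0.89), Acad11 (0.53), Xlr3b (0.47) and Xlr3a (0.31) rose in DKO minus GKO after falling in AKO. The levels behind some of these rises were near 0, as for Dnajc5g, which was at 0 and 0.026 TPM in GKO and 0.851 and 0.899 TPM in DKO, and Xlr3a, which was under 0.5 TPM in all 4 libraries. Aqp3, Arf6, Cfl2, Slc7a11, Xlr4a and Xlr5a did not pass in DKO against GKO.

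Over chromosome 12, the median change in DKO minus GKO was 0.12, but not evenly so. Its windows from 50 to 100 Mb had medians between -0.029 and 0.055, and those beyond 100 Mb had 0.61 and 0.64, whereas AKO minus naive lay above 0 in all. Against naive, the GKO and DKO libraries were themselves higher from 50 to 100 Mb, with window medians of 0.14 to 0.26 for GKO and 0.21 to 0.27 for DKO, so in that stretch all 3 knockout lines lay above the naive libraries. Below 50 Mb both GKO and DKO lay below naive, with window medians down to -0.57 and -0.48. Egr1 stood at 8.93 and 4.24 TPM in GKO and 31.9 and 29.8 TPM in DKO (2.14, adjusted p = 0.0016), and Fos at 1.76 and 1.70 TPM against 5.06 and 5.49 TPM (1.2, adjusted p = 0.035). Both immediate early genes thus rose in DKO against GKO, where they passed, and were higher in AKO than in naive cells, where they did not.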

How the data were processed

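The series holds RNA-seq of 5 mouse ESC lines (2 libraries each). Lines and replicate numbers were taken from the labels. The authors deposited TPM per protein-coding gene. The methods name GRCm39 with TrimGalore, STAR and RSEM, whereas the submitters' processing notes name GRCm38, Trim Galore 0.6.6, STAR 2.7.9a, RSEM 1.3.3 and FastQC, and kit and sequencer also differ between these sources, so the build of the files is not settled. Positions were taken from GENCODE for GRCm39, and promoters from RefSeq for GRCm38.p6. The listed TPM summed to 500162 to 578952 per library, since other gene classes are left out. TPM keeps no depth, and reads of similar genes were divided by estimation. No interval for counting error can be given.

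Values were taken as log2(TPM + 1), and a gene was tested where 2 or more libraries reached 1 TPM. Fold changes are on this scale and understate those of low genes. A single limma 3.58.1 fit (R 4.3.3) gave each of the 5 lines a mean, with an intensity trend and Benjamini-Hochberg adjustment over all 12060 genes, and the threshold was an adjusted p of 0.05. A gene was called bounded where its 95% interval lay inside -0.5 to 0.5. For single values of 2 libraries against 2, the smallest exact two-sided p is 0.333. No libraries were identical. The fit was tested on simulated data with independent noise. Such data cannot show effects of shared cultures, of clones or of chromosome-wide shifts. Rows of the 26 symbols listed more than 1 time were kept apart and given no position. The named genes were the AMPK subunits, every gene that passed, the most abundant member of each list and the one with the largest value, the 10 most abundant genes, and the markers the study names. The members and lists were chosen with earlier results of these data known, so they support nothing on their own. Every library was used. One gene that this rule names is not reported here. Alternatives were another pseudocount, 2 filters, 2 scalings, no trend, a fold threshold, a replicate block, fewer lines and each library left out.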

Additional observations from a re-analysis of the deposited data

Results flagged for a closer look

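The change with the AMPK knockout differed between wild-type and Gys1 knockout cells for 18 of the 27 genes, by the limma test of (DKO minus GKO) minus (AKO minus naive), in log2(TPM + 1). The difference was below 0 for Ldhb (-2.51), Lamb1 (-1.11), 4930447C04Rik (-1.02), Prkaa1 (-0.97), Cotl1 (-0.55), Slc7a11 (-0.49), Stk24 (-0.29), Arf6 (-0.29) and Cfl2 (-0.24). It was above 0 for Aqp3 (0.50), Xlr5a (0.61), Acad11 (0.98), Xlr4a (1.03), Xlr3a (1.04), Xlr3b (1.05), Dnajc5g (1.44), Uap1l1 (1.64) and Zfp951 (1.73). Prkaa1, Cotl1 and Stk24 fell in both backgrounds and fell further in the Gys1 knockout. The GKO and DKO lines also differ from the naive and AKO lines in Y-linked genes and in chromosome-wide medians, and what part this has in the differences was not tested. Groups of 2 libraries are too small for a test of outlying samples.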

How the results depend on the processing

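All 27 genes kept their direction under every alternative that gave them a value. The count of 27 became 13 with a pseudocount of 0.1, 17 with a filter at a mean of 5 TPM, 0 in the fit of the 4 libraries alone (2011 genes at an unadjusted p under 0.05), 131 without the primed libraries and 1 with an absolute log2 change of at least 1. Leaving out 1 library of the 4 gave 1 to 3, and only Prkaa1 passed in all of these fits. Added after seeing the data, centring the AKO libraries by chromosome gave 17 and by 10 Mb window 10, with Gm364, which has no position, left as it was. It was 23 with quantile normalization, 27 with median-ratio scaling, 27 without the filter, of which 19 were shared, and 20 without the trend, of which 17 were shared. Prkaa1 missed the threshold only in the fit of the 4 libraries alone (-1.07, adjusted p = 0.060). With an absolute log2 change of at least 1, DKO against GKO had 323 genes and the difference of the changes 349, and leaving out 1 library gave 1944 to 2400 for the latter. Counts of bounded genes stayed within 1.5 times the 10947.

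With a replicate block, 8 genes passed in AKO against naive, Prkaa1, Cotl1, Gm364, Ipo5, Lamb1, Uap1l1, Xlr4a and Xlr5a. Nothing in the labels says that a number marks a pair, and the deviations of same-numbered libraries correlated at -0.052 between naive and AKO and from -0.13 to 0.078 over all pairs of lines, so the numbers were not taken to pair samples.

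Of 79 genes named by the rule that did not pass, 7 passed in some alternative, each without the primed libraries: Brsk2, Ccnd1, Cdx1, Gbx2, Pcx, Tubb3 and Zic5. TPM gives no depth, so limits of detection cannot be stated, and 2 libraries a line with no record of separate cultures limit each bound.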

Other observations

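Outside chromosome 12 and the end of chromosome 14, the window with the lowest median was the last 10 Mb bin of chromosome 4 with at least 10 tested genes, from 150 Mb, with 71 genes and a median of -0.12 in both AKO libraries. The first 10 Mb of chromosome 13 had a median of -0.11 over 14 genes. Several genes that just missed the threshold were no members of the lists. Exoc3l, a relative of exocyst subunits, had -0.50 (adjusted p = 0.060), Klhl22, an adaptor of a ubiquitin ligase, -0.57 (adjusted p = 0.068) and Hmga2, an architectural chromatin protein, -0.33 (adjusted p = 0.068). Gldc, the glycine-cleaving decarboxylase, had -0.36 and Ak4, an adenylate kinase of mitochondria, -0.31 (both with an adjusted p of 0.086). These 5 were all lower in AKO. Others lay as near the threshold, such as Nln (-0.34, adjusted p = 0.063) and Cdc14b (-0.44, adjusted p = 0.064), both lower. Zc3h14 (0.25, adjusted p = 0.065) and Klhdc2 (0.37, adjusted p = 0.068), both on chromosome 12, were higher. All of these genes were chosen after their values were seen.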
